A study of Raphanus sativus with 9 samples.

Results

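Of the 64657 radish (*Raphanus sativus*) genes in the count files, 4 are described here. They are *RsBCAT4* (RSG13682), *RsBAT5* (RSG43366), *RsBCAT3a* (RSG45676), and *RsBCAT3b* (RSG51233), which were picked by identifier as the radish homologs of the *Arabidopsis* genes *BCAT4*, *BAT5*, and *BCAT3*, with symbols from the study's list of glucosinolate (GSLs) genes. Aliphatic GSLs are defence compounds of the Brassicaceae that are built largely from methionine, whose side chain is first lengthened. In *Arabidopsis*, the aminotransferase BCAT4 takes the amino group off methionine in the cytosol, and the carrier BAT5 brings the resulting 2-oxo acid into the plastid. There MAM synthases, isopropylmalate isomerase, and isopropylmalate dehydrogenase lengthen the chain. The plastid aminotransferase BCAT3 then puts an amino group back on the lengthened acid, and it also takes part in making branched-chain amino acids.

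RNA-seq libraries were made from the single cultivar Taebaek, with 3 labelled replicates in each of 3 groups. NV plants were 4 weeks old and not vernalized, V plants were 8 weeks old after 4 weeks of cold, and AV plants were 10 weeks old after 4 weeks of cold and 2 weeks back in the warm. Plant age rose with each group, the cold room had short days, and no NV plants of 8 or 10 weeks were analysed here, so that cold, age, and light cannot be told apart. The tissue is labelled leaf and roots, whereas whole seedlings are named for the extraction, so that the tissues in each library are not settled. In such bulk RNA, fewer cells of a type and less RNA per cell cannot be told apart. Leaf and root marker genes were not checked, because the files give identifiers only.

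The libraries held 21119531 to 27606212 reads on genes. AV replicates 2 and 3 had equal counts in 98.7% of 27930 genes (those whose counts in the pair sum to at least 40), all 4 genes described here included, against 0.359% to 0.899% for any other pair of libraries. This pair was far closer than sampling noise allows, so it was averaged and counted as 1 library. That left 8 libraries and n = 2 in AV. The study lists these replicates with different read totals and mapping rates. Whether the counts given for both belong to only 1 of them was not settled. Levels are given as CPM, a gene's count relative to the library total and scaled by edgeR's TMM method. Changes are log2 fold changes from edgeR's quasi-likelihood test, fitted to all 8 libraries and the 32043 genes that passed its filter on low counts. A change was called at a Benjamini-Hochberg adjusted p under 0.05 over these genes. All 4 genes passed the filter, with 94 to 4108 counts in a library, so that counting error alone was between 1.56% and 10.3% of a count. Gene lengths are not in the files, and levels are therefore compared between groups and not between genes.

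By 2 weeks after the cold, *RsBAT5* and *RsBCAT4*, homologs of the carrier and the first aminotransferase, had fallen most of the 4 genes. The change in *RsBCAT3a* did not pass the test. *RsBAT5* was 10.02-fold lower in AV than in NV and *RsBCAT4* 4.04-fold lower. *RsBCAT3b* was 1.42-fold lower, a call close to the threshold that depended on the libraries used. In AV/NV, 3 of the 4 genes were thus called lower and none higher, where 19.8% of all genes tested were called lower and 17% higher. In AV/V the same 3 genes were called lower, where 16.9% of all genes tested were called lower and 14.7% higher. In V/NV only *RsBAT5* was called lower and none of the 4 higher, where the shares were 19.3% and 19.2%. Each group serves in 2 of these comparisons, which are therefore not independent of each other.

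**Figure D1:**
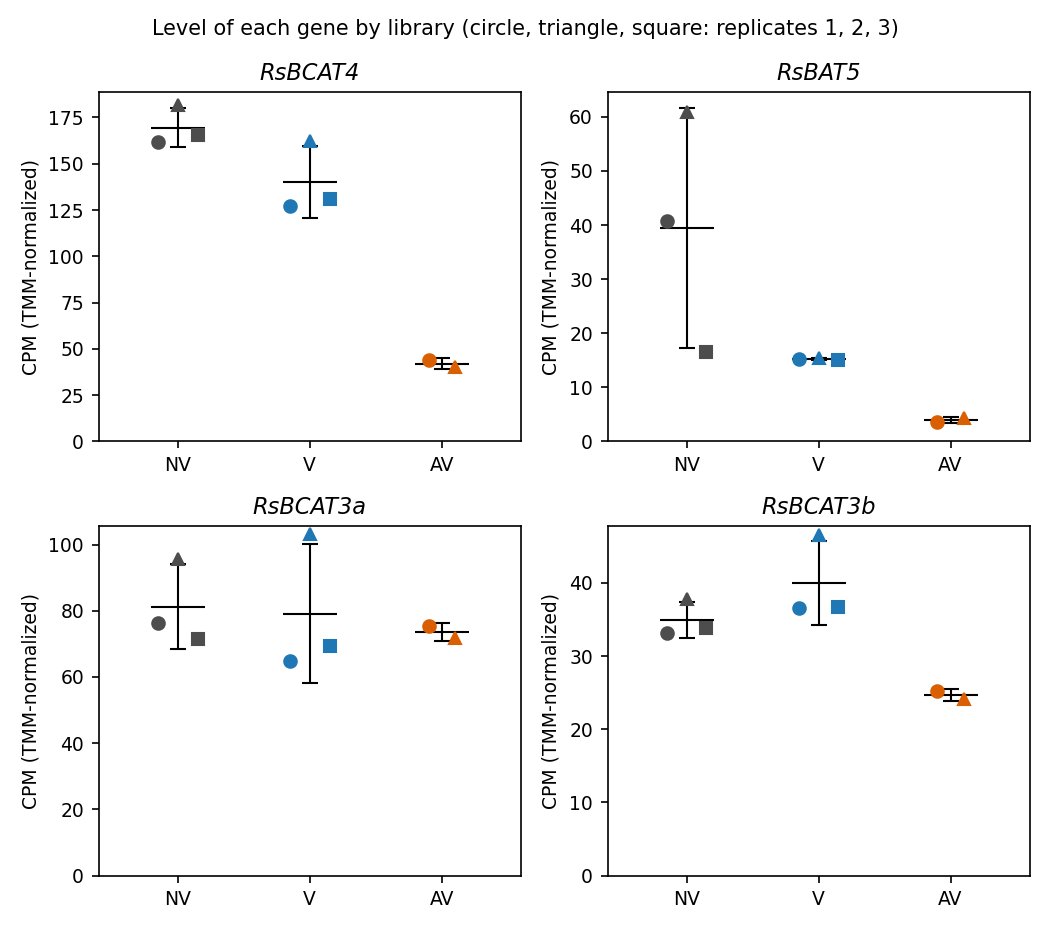
TMM-normalized CPM (vertical axis, from 0) of the 4 genes in each library of NV, V, and AV; points are libraries, and the bars are mean ± SD (n = 3 in NV and V, n = 2 in AV, where the triangle is the average of replicates 2 and 3). *RsBCAT4* and *RsBAT5* are lowest in both AV libraries, *RsBAT5* spreads from 16.6 to 61.0 CPM in NV, and the *RsBCAT3a* groups overlap.

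*RsBCAT4*, the homolog of the methionine aminotransferase of the first step, had 162, 182, and 165 CPM in NV replicates 1, 2, and 3. The V replicates had 127, 162, and 131 CPM, and AV had 44.0 CPM in replicate 1 and 40.01 CPM in the averaged pair. Both AV libraries were below every other library by a wide margin, and V replicate 2 lay just within the range of NV. In AV against NV the log2 fold change was -2.01 (standard error 0.19, adjusted p = 7.05e-07). The means were 42.0 ± 2.82 CPM in AV (SD, n = 2) and 169.6 ± 10.6 CPM in NV (SD, n = 3). In AV against V the log2 fold change was -1.74 (standard error 0.18, adjusted p = 3.26e-06).

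The difference of *RsBCAT4* between V, with a mean of 140.1 ± 19.3 CPM, and NV did not pass the test (log2 fold change -0.28, 95% interval -0.60 to 0.05, adjusted p = 0.172). Without V replicate 2, the highest V library, it did pass (log2 fold change -0.39, adjusted p = 0.0455). The order of the groups was therefore NV, V, AV, with NV and V not separated beyond their spread. Both steps were also compared within the same fit, as the log2 change from V to AV minus the log2 change from NV to V. This difference was -1.46 for *RsBCAT4* (standard error 0.27, adjusted p = 0.000625), so that the fall in the warm weeks was larger than the change in the cold. The same difference was called negative in 18.6% of all genes.

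*RsBAT5*, the homolog of the plastid carrier of 2-oxo acids, was the gene with the widest spread before the cold. It had 40.8, 61.0, and 16.6 CPM in NV replicates 1, 2, and 3, from 1037, 1286, and 404 counts. The V replicates were close together at 15.3, 15.4, and 15.0 CPM, and AV had 3.54 CPM in replicate 1 and 4.31 CPM in the averaged pair. No V library reached any NV library, but NV replicate 3 was only 1.16 CPM above the highest V library.

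In V against NV, the log2 fold change of *RsBAT5* was -1.37 (standard error 0.32, adjusted p = 0.00275), with means of 15.2 ± 0.229 CPM in V and 39.4 ± 22.2 CPM in NV (SD, n = 3 each). The size of this fall rested on which NV libraries were used. It was -0.92 on the log2 scale without NV replicate 2 (adjusted p = 0.0153) and -1.74 without NV replicate 3 (adjusted p = 2.37e-06). In AV against NV the log2 fold change was -3.33 (standard error 0.41, adjusted p = 1.34e-05), and in AV against V it was -1.95 (standard error 0.39, adjusted p = 0.00125). Of all genes tested, 2.12% had a lower log2 fold change than *RsBAT5* in AV/NV, and 6.12% had a lower one than *RsBCAT4*. The step from V to AV could not be separated from the step from NV to V for *RsBAT5* (difference -0.58, 95% interval -1.80 to 0.64, adjusted p = 0.470).

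The variation of *RsBAT5* between replicates, as edgeR estimated it over all groups, was 26.7% of its level, where genes of like abundance had 16.8%. For *RsBCAT4*, *RsBCAT3a*, and *RsBCAT3b* it was 14.3%, 17.0%, and 14.4%. NV replicate 3 was also the NV library with the most genes standing low. Of the 27811 genes with a mean of at least 1 CPM, 2.25% were at under 0.5 times the lower of the other NV libraries in replicate 3, against 1.52% in replicate 2 and 0.187% in replicate 1. Among 40 aliphatic GSLs genes at this level, *RsBAT5* and *RsMYB28b*, a homolog of the aliphatic regulator MYB28, were the only genes this low in NV replicate 3, and they were looked up after their values were seen. The part of this library in the *RsBAT5* result beyond the values without it was not tested.

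*RsBCAT3a* and *RsBCAT3b* are both homologs of the *Arabidopsis* plastid aminotransferase gene *BCAT3*. Reads with more than 1 alignment are not counted by HTSeq-count, and how many such close homologs lost in this way was not tested. *RsBCAT3a* had 76.4, 95.7, and 71.5 CPM in NV replicates 1, 2, and 3 and 64.8, 103, and 69.4 CPM in the V replicates. In AV it had 75.5 CPM in replicate 1 and 71.7 CPM in the averaged pair. All 3 groups overlapped, and replicate 2 was the highest library of both NV and V for *RsBCAT3a*, as it also was for the other 3 genes, if only narrowly for *RsBAT5* in V.

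No change of *RsBCAT3a* passed the test. Its log2 fold change was -0.04 in V against NV (95% interval -0.44 to 0.36, adjusted p = 0.897), -0.14 in AV against NV (-0.59 to 0.31, adjusted p = 0.639), and -0.10 in AV against V (-0.55 to 0.34, adjusted p = 0.747). The intervals allow moderate changes in either direction and do not show that its level stayed the same. The sign of the change in V against NV turned without NV replicate 2, V replicate 1, or V replicate 3, with values of 0.10, 0.09, and 0.05, and that in AV against V turned without V replicate 2 (0.13).

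*RsBCAT3b* had 33.2, 37.7, and 33.8 CPM in NV replicates 1, 2, and 3 and 36.6, 46.6, and 36.6 CPM in the V replicates. In AV it had 25.2 CPM in replicate 1 and 24.1 CPM in the averaged pair. Both AV libraries were below all NV and V libraries, and the NV and V ranges overlapped. In AV against V the log2 fold change was -0.70 (standard error 0.18, adjusted p = 0.00775). The means were 24.6 ± 0.813 CPM in AV (SD, n = 2) and 39.95 ± 5.75 CPM in V (SD, n = 3). In V against NV, with a mean of 34.9 ± 2.47 CPM in NV, the log2 fold change was 0.19 (95% interval -0.14 to 0.53, adjusted p = 0.355).

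The fall of *RsBCAT3b* in AV against NV (log2 fold change -0.50, standard error 0.18) was close to the threshold, at an adjusted p of 0.0382. Leaving out 1 library ended the call for 6 of the 8 libraries, at an adjusted p of 0.0664 without NV replicate 1, 0.0682 without NV replicate 2, 0.0607 without V replicate 1, 0.0585 without V replicate 3, 0.132 without AV replicate 1, and 0.175 without the averaged AV pair. In AV against V it was lost without AV replicate 1 (adjusted p = 0.0555) and without the averaged pair (adjusted p = 0.0763). The step from V to AV differed from the step from NV to V by -0.89 on the log2 scale (standard error 0.28, adjusted p = 0.0226), a call that was lost without NV replicate 1 (0.0548), V replicate 2 (0.0935), AV replicate 1 (0.0572), or the averaged pair (0.0785).

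**Figure D2:**
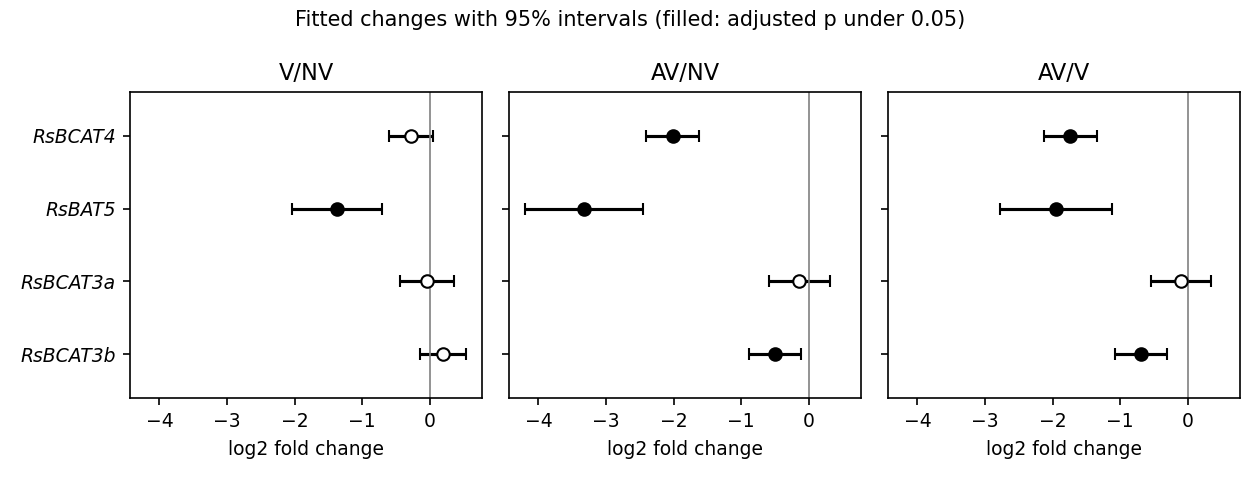
Fitted log2 fold changes (horizontal axis) of the 4 genes in V/NV, AV/NV, and AV/V; points are estimates from the 8 libraries, bars are 95% intervals, and filled points passed an adjusted p of 0.05. The intervals of *RsBCAT4* and *RsBAT5* lie well below 0 in AV/NV, whereas those of *RsBCAT3a* cross 0 in all 3 comparisons.

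The CPM of 3 of the 4 genes did not overlap between groups in AV/NV and in AV/V, and that of 1 gene did not in V/NV. All were lower in the later group. Over all genes tested, 29% were lower without overlap in AV/NV, 30.2% in AV/V, and 23.9% in V/NV, so that separation of so few libraries is common here. With 3 libraries against 3 or 2, the smallest p of an exact permutation test between a pair of groups is 0.1 for 1 gene.

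To compare the genes with each other, the ratio of their counts was taken within each library, which does not depend on the scaling between libraries. The height of a ratio depends on gene lengths, and only its change between groups is read. For each of the 6 pairs of genes, the share of the sum of squares that lay between the 3 groups was tested over the 280 ways to group the 8 libraries (exact permutation test, one-sided, p-values adjusted over the 6 pairs). The smallest p that the design allows is 0.00357 before adjustment. How often the ratio of other pairs of genes separates the groups was not tested.

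*RsBCAT4* and *RsBCAT3b* are homologs of the first and the last aminotransferase of chain elongation. Their ratio was the steadiest within NV and within V, though not within AV. It was 4.87, 4.81, and 4.89 in NV replicates 1, 2, and 3. It was 3.47, 3.48, and 3.57 in the V replicates and 1.74 and 1.66 in AV. The groups were widely apart, and within NV the replicates differed by less than the counting error of a single ratio, 3.78% to 3.90% in that group. The groups held 99.9% of the sum of squares (adjusted p = 0.0143). The ratio was lower in V than in NV in every library, although neither gene on its own changed beyond the threshold in V/NV. The test of the ratio covers all 3 groups at once, and V against NV alone was not tested.

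The ratio of *RsBCAT4* to *RsBCAT3a* was 1.90 to 2.31 in NV, 1.57 to 1.96 in V, and 0.583 and 0.558 in AV. The V and NV ranges overlapped, and AV lay below both. The groups held 97.9% of its sum of squares (adjusted p = 0.0143). *RsBAT5* against *RsBCAT3a* gave 87.7% (adjusted p = 0.0143) and against *RsBCAT3b* 83.0% (adjusted p = 0.0171), with the lowest ratios in AV. NV had the highest, but NV replicate 3 lay within the V range for *RsBAT5* against *RsBCAT3a*.

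The ratio of *RsBAT5* to *RsBCAT4* was 0.252, 0.336, and 0.1001 in NV replicates 1, 2, and 3. It was 0.120, 0.0949, and 0.114 in the V replicates and 0.0805 and 0.108 in AV. NV replicate 3 lay among the V and AV libraries, and the difference between groups did not pass (share 51.2%, adjusted p = 0.157). Without NV replicate 3 it passed (share 93.3%, adjusted p = 0.0457). The call for this pair thus rests on that library.

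The ratio of the homologs *RsBCAT3b* and *RsBCAT3a* was 0.394 to 0.473 in NV, 0.451 to 0.565 in V, and 0.334 and 0.336 in AV. AV lay below both other groups, whose ranges overlapped. The groups held 83.5% of the sum of squares (adjusted p = 0.0171). Without V replicate 1, the adjusted p of this ratio and of *RsBAT5* to *RsBCAT3b* was 0.0571, in a test with fewer libraries.

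**Figure D3:**
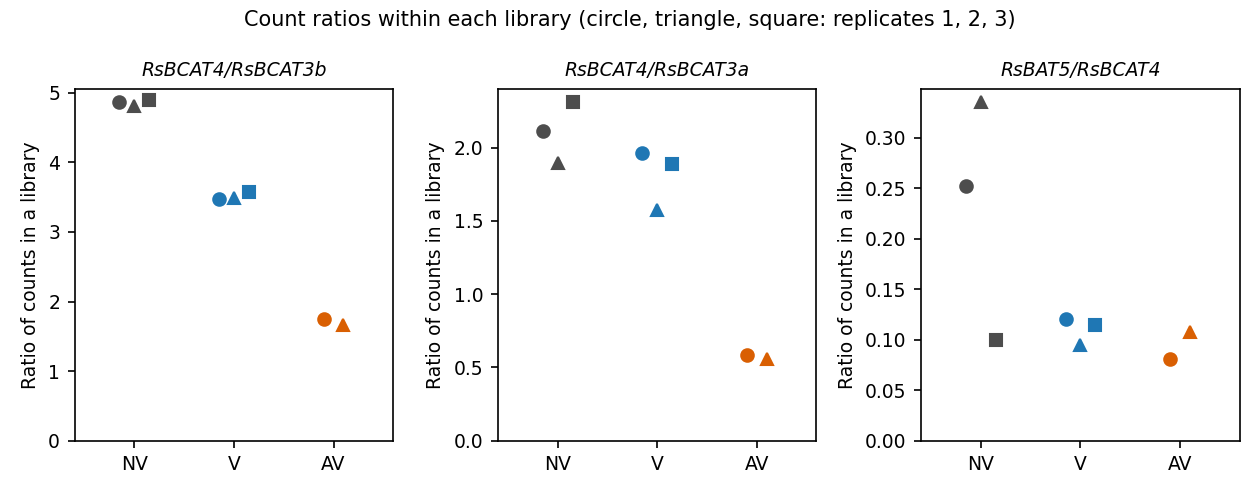
Ratio of counts within a library (vertical axis, from 0) for 3 of the 6 pairs of genes in NV, V, and AV; each point is a library, and the AV triangle is the average of replicates 2 and 3. The *RsBCAT4* to *RsBCAT3b* ratio falls in 3 tight groups of 4.81 to 4.89, 3.47 to 3.57, and 1.66 to 1.74, whereas *RsBAT5* to *RsBCAT4* has its NV replicate 3 at 0.1001, beside the V and AV libraries.

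The study's list holds 6 other genes of side-chain elongation, all of which passed the filter. In AV/NV 5 of them were called lower and none higher, with a median log2 fold change of -1.44, against a median of 0 over all genes tested and of -1.26 over the 4 genes described here. In AV/V 4 were lower and none higher (median -1.33, against -0.02 over all genes), and in V/NV 2 were lower and none higher (median -0.46, against 0.01 over all genes). Over all genes tested, 19.8% were called lower in AV/NV, 16.9% in AV/V, and 19.3% in V/NV. *RsIPMDH1*, the homolog of the dehydrogenase that completes a round of elongation, had the largest fall of the 6 in AV/NV, where its log2 fold change was -2.89 ± 0.21 (standard error), with an adjusted p of 5.57e-08, and it fell in V/NV by 0.82 on the log2 scale (adjusted p = 0.000987). *RsIPMI-SSU2*, the homolog of a small subunit of the isomerase, had -1.99 in AV/NV (adjusted p = 1.17e-05). *RsIPMI-LSU1*, the homolog of the large subunit, had -0.57 (adjusted p = 0.0306). The MAM synthase homologs *RsMAM1b* and *RsMAM1c* had log2 fold changes of -2.17 (adjusted p = 8.83e-06) and -0.89 (adjusted p = 0.000643), while *RsMAM1a*, with at most 13 counts in a library, was not called (1.25, adjusted p = 0.287).

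In the step comparison, the difference was called negative for 4 of these 6 genes and for 2 of the 4 described here. Over all genes tested, 18.6% were called negative. By estimate, all 4 genes described here had a negative difference, the one nearest 0 being -0.07. The 4 called among the other elongation genes were *RsMAM1b*, *RsMAM1c*, *RsIPMI-SSU2*, and *RsIPMDH1*. Their differences were -1.31, -1.41, -1.02, and -1.26 on the log2 scale. *RsMAM1a*, with its low counts, was not called, and for *RsIPMI-LSU1* the difference was 0.48 (adjusted p = 0.254). Among the 10 elongation genes, *RsBAT5*, *RsIPMDH1*, and *RsIPMI-LSU1* were those called lower in V/NV, where 19.3% of all genes tested were called lower. Of these, *RsBAT5* had the lowest estimate, with an interval that overlaps that of *RsIPMDH1*.

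**Figure D4:**
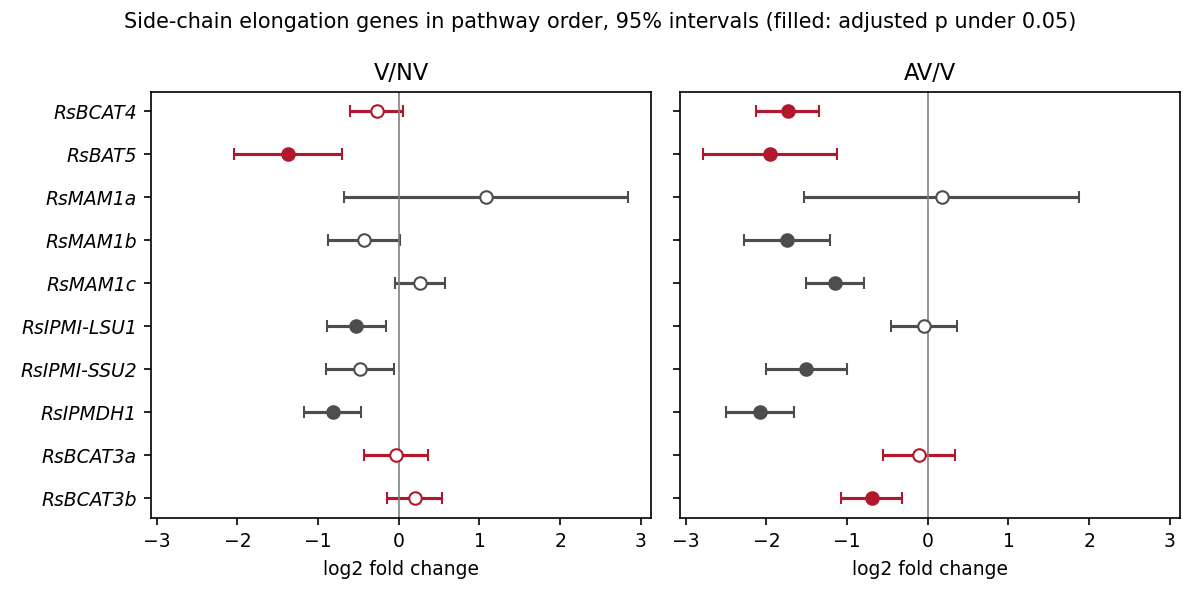
Fitted log2 fold changes (horizontal axis) with 95% intervals of the 10 side-chain elongation genes in V/NV and AV/V, in pathway order; red marks *RsBCAT4*, *RsBAT5*, *RsBCAT3a*, and *RsBCAT3b*, and filled points passed an adjusted p of 0.05. In V/NV 3 points are filled, and in AV/V 7 are, all below 0.

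Beyond elongation, 17 of the 19 tested core structure genes of the aliphatic pathway were lower and none higher in AV/NV (median log2 fold change -1.82), and 9 were lower and 1 higher in V/NV (median -0.41). Over all genes tested, 19.8% were called lower and 17% higher in AV/NV (median 0), and 19.3% lower and 19.2% higher in V/NV (median 0.01). Of the 8 tested secondary modification genes, 2 were lower and 1 higher in AV/NV (median -0.26), and 4 were lower and 2 higher in V/NV (median -0.75). Of the 5 homologs of the regulators MYB28 and MYB29, which in *Arabidopsis* activate genes of this pathway, 4 were higher and none lower in V/NV (median 0.77), whereas 4 were lower and 1 higher in AV/NV (median -1.93). *RsMYB28b* had only 1.19 to 3.41 CPM in NV, with its lowest level in NV replicate 3, and 5.47 and 8.87 CPM in AV. In AV/NV it had the highest log2 fold change of all tested aliphatic genes, 1.46 (adjusted p = 0.0058). The lowest was that of the sulfotransferase homolog *RsSOT18i*, which had 0 counts in both AV libraries and 21, 23, and 18 counts in the NV libraries.

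For each gene, the 2 tested genes of the study's list with the most similar profile were found. The profile was the log2 CPM in the 8 libraries, each gene centred on its NV mean, and likeness was measured as the root mean square difference between profiles. Nearest to *RsBCAT4* were *RsCYP83A1*, a cytochrome P450 homolog of core structure formation, at 0.176, and *RsSOT18a*, a sulfotransferase homolog of the last core step, at 0.212. Only 10 of the other 32042 genes tested were nearer than *RsCYP83A1*. Its level was 146 to 162 CPM in NV, 137 to 163 CPM in V, and 33.6 and 34.2 CPM in AV.

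Nearest to *RsBAT5* were *RsTGG1a* at 0.308 and *RsTGG1g* at 0.375, homologs of the myrosinase gene *TGG1*, whose enzyme breaks GSLs down. They lie outside the elongation pathway, and 1 of all genes tested was nearer than *RsTGG1a*. Ranks 3 to 8 of the study's list were all held by aliphatic biosynthesis genes, among them the elongation gene *RsIPMDH1* at 0.471. The other *TGG1* homologs lay further away, at 1.00 to 2.05. Like *RsBAT5*, *RsTGG1a* had its lowest NV level in replicate 3, with 698, 714, and 408 CPM in NV replicates 1, 2, and 3. It had 225 to 239 CPM in V and 75.7 and 78.8 CPM in AV.

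*RsBCAT3a* was nearest to *RsBCAT3b* (0.260) and to *RsIGMT1b* (0.295), a homolog of an indole GSLs methyltransferase gene, and *RsBCAT3b* to *RsMAM1c* (0.216) and *RsBCAT3a*. These were less close in rank, since 5.89% of all genes were nearer to *RsBCAT3a* than *RsBCAT3b* was, and 1.71% were nearer to *RsBCAT3b* than *RsMAM1c* was. *RsMAM1c* had 57.1 to 60.7 CPM in NV, 63.5 to 76.2 CPM in V, and 32.1 and 31.5 CPM in AV. Both libraries of AV were thus its lowest, as for *RsBCAT3b*.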

How the data were processed

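The labels name a stranded mRNA kit (TruSeq) and a NovaSeq instrument. Per the study's methods, the authors checked and trimmed the reads, ran Tophat2 against the radish genome of the Nodai database, and counted with HTSeq-count. The deposited values are raw counts, with no normalization. Versions, strand setting, and counting mode are not given in the sources used here. Reads not assigned to a gene, 4.27% to 8.89% per library, were left out. These include reads with more than 1 alignment, 0.974% to 1.59% per library. None of the identifiers matched the RefSeq gene table (0 matches), so that no positions or sequences are printed.

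Groups and replicate numbers came from the sample labels. No label says that replicates are separate plants, which the study's methods call biological replicates. AV replicates 2 and 3, which differed in 376 of 64657 genes, entered as their rounded mean. Counts were filtered with filterByExpr, normalized by TMM, and tested with glmQLFit (robust) and glmQLFTest of edgeR 4.0.16 under R 4.3.3. The standard error is the log2 fold change divided by the square root of F. The scripts were tested on simulated data. Profiles used log2 CPM with a prior count of 2. Members and gene lists were chosen with earlier results of these data known.

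The genes named are the 4 members, the other elongation genes, the 2 nearest profiles of each member, and the aliphatic genes with the highest and lowest AV/NV change. Alternatives were DESeq2 size factors, upper quartile and library totals as scaling, no filter, DESeq2 1.42.0, all 9 libraries, either AV replicate 2 or 3 in place of their mean, only the groups compared, the replicate number as a block, and each library left out.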

Additional observations from a re-analysis of the deposited data

How the results depend on the processing

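The 16 tests of the 4 genes were run under 300 alternatives in all, and 278 kept the direction and the side of the threshold. The calls of *RsBCAT4* and *RsBAT5* in AV/NV and AV/V and of *RsBAT5* in V/NV were kept under every alternative run. For *RsBCAT4* in V/NV, the log2 fold change was -0.39 to -0.21 with a library left out, and it passed without V replicate 2 only. *RsBCAT3b* in AV/NV was not called with library totals (-0.42, adjusted p = 0.0726), without the filter (-0.50, adjusted p = 0.0539), or in a fit of only those groups (-0.50, adjusted p = 0.0555). With a library left out, its log2 fold change was -0.54 to -0.44 in AV/NV and -0.76 to -0.57 in AV/V, and its difference between steps -1.01 to -0.64. *RsBCAT3a* was never called, and leaving out a library gave -0.27 to 0.10 in V/NV, with sign changes at 0.10, 0.09, and 0.05. It gave -0.23 to 0.13 in AV/V and -0.32 to 0.41 for the difference between steps, where the sign turned without NV replicate 3 (0.02) and without V replicate 2 (0.41). In AV/NV and AV/V, the fewest genes were called without an AV library. With a library left out, 4154 to 6692 genes were lower and 3295 to 5791 higher in AV/NV, against 6353 and 5447 with all, and 3271 to 6076 were lower and 2722 to 5450 higher in AV/V, against 5408 and 4709. Where AV kept 1 library, its spread was assumed to be that of the other groups. No scaling moved the median change of all genes by over 0.1 on the log2 scale.

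In a fit with a replicate block (the number in the labels), the log2 fold change in V/NV was -0.28 for *RsBCAT4* and -1.20 for *RsBAT5*, and no call of the 4 genes changed. Deviations from group means in NV and V libraries of the same number had r = 0.0577, 0.313, and 0.168 across genes. Libraries of different numbers had r from -0.288 to 0.239. Whether the numbers pair the samples was not tested, and the main fit took the samples as unpaired.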
